A study of Saccharomyces cerevisiae with 12 samples.

Results

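Small nuclear and nucleolar RNAs other than U3 and snR30 carried 92 of the 6195 splice forms in a table from budding yeast, Saccharomyces cerevisiae, for which 12 rRNA-depleted libraries were sequenced. They were taken as every listed form whose host name begins with SNR or is LSR1, RPR1, NME1 or TLC1, leaving out the U3 genes SNR17A and SNR17B and the gene SNR30. The 92 forms lay in 20 host RNAs and held 5035 of 3455374 reads in the table, or 0.796% of the reads outside SCR1, the signal recognition particle RNA that dominates every library. A form here is a pair of positions between which an aligned read skips sequence, so its count is a number of reads across a gap and not a level of the RNA.

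All cultures were haploid BY4741 derivatives with the his3Δ1, leu2Δ0, met15Δ0 and ura3Δ0 alleles, labelled MATa, and grown in the rich medium YPD at 25 °C. The 6 genotypes were wild type, set1Δ, set2Δ, prp43-1, set1Δ prp43-1 and set2Δ prp43-1, each with 1 library labelled 25 °C and 1 labelled 37 °C. The time spent at 37 °C is not given in the sources used here. SET1 and SET2 encode histone H3 methyltransferases, and prp43-1 is an allele of the gene for the RNA helicase Prp43. No condition was repeated, so single-library values have no replicate check, and the spread in every test is the residual of a model over the libraries.

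As background, small nucleolar RNAs guide the chemical modification of ribosomal RNA. Box H/ACA RNAs fold into hairpins and direct pseudouridylation, whereas box C/D RNAs direct methylation of the ribose, and a few members of either kind are needed for cleavage of the ribosomal precursor. Spliceosomal small nuclear RNAs form the core of the splicing machinery, and the RNAs of RNase P and RNase MRP belong to enzymes that process transfer RNA and ribosomal RNA. Prp43 releases the intron and the small nuclear RNAs from spent spliceosomes, and it also acts in ribosome assembly, where it is known to help release small nucleolar RNAs from pre-ribosomes.

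The forms with the most reads are shown first, because they carry most of the signal. The 12 most-read forms held 4179 reads (83.0% of the reads on these RNAs), in 9 hosts. Sequences were read from the R64 genome on the strand of the RNA, 5′ to 3′, with 20 flanking bases on either side. Capitals mark the skipped bases.
snR190, 28 nt, chrX:139833-139860, minus strand, 739 reads: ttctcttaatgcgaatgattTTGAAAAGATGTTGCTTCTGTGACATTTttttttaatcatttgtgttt
snR190, 66 nt, chrX:139812-139877, minus strand, 142 reads: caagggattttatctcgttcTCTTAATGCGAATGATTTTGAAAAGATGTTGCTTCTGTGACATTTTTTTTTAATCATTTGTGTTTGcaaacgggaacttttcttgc
snR8, 23 nt, chrXV:832469-832491, plus strand, 615 reads: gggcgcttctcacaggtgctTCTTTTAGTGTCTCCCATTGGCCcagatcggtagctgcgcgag
snR46, 11 nt, chrVII:545524-545534, plus strand, 599 reads: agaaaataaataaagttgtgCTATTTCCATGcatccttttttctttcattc
snR37, 24 nt, chrX:228179-228202, minus strand, 493 reads: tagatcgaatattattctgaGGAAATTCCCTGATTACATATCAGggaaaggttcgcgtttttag
snR49, 11 nt, chrXIV:716255-716265, plus strand, 467 reads: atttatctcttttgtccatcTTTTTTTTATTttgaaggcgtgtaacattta
snR34, 26 nt, chrXII:899335-899360, plus strand, 340 reads: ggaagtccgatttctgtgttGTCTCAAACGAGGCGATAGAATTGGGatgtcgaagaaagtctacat
snR34, 31 nt, chrXII:899327-899357, plus strand, 293 reads: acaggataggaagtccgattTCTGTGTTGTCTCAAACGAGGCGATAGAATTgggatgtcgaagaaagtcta
NME1, 31 nt, chrXIV:585648-585678, plus strand, 165 reads: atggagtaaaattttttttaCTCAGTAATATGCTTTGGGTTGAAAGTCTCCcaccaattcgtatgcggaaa
snR86, 16 nt, chrXIII:762770-762785, minus strand, 120 reads: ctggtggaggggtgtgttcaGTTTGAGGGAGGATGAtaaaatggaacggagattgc
snR3, 11 nt, chrX:663897-663907, plus strand, 98 reads: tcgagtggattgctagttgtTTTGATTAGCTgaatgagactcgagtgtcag
snR86, 436 nt, chrXIII:762327-762762, minus strand, 108 reads, first 20 skipped bases: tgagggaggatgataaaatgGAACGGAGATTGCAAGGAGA
snR86, same form, last 20 skipped bases: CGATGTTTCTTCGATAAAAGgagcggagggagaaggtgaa

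None of these 12 skipped segments begins with GT and ends with AG, the ends of nearly all yeast introns. The longer snR190 form contains the whole of the shorter one, and the pair in snR34 overlap, so reads on them come from the same stretch of RNA. The 5 bases after the skipped segment of snR37 repeat the first 5 bases of that segment, so the same reads could be placed with the gap moved by up to 5 nt. In snR8 and in the 26-nt form of snR34 no such shift was possible. In snR49 the skipped 11 nt held only A and T.

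Over all 92 forms the skipped segments were short. Their median length was 32.5 nt (quartiles 20 and 64.5 nt, range 11 to 574 nt), against 83 nt for forms in coding hosts, 42 nt in U3, 36 nt in SNR30 and 63 nt in SCR1. The shortest length listed for any form in the table was 11 nt, and 10 of the 92 forms (10.9%) had exactly this length, against 1.20% of forms in coding hosts. Those 10 forms held 25.1% of the reads on these RNAs, and forms of 50 nt or less held 89.7%. The 11-nt forms of snR46, snR49 and snR3 were the only listed forms of these 3 RNAs.

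Splice-site sequence was rare among them. GT and AG ends, read on either strand, were present in 2 of 92 forms (2.17%), against 14.7% of forms in coding hosts, 3.08% in SCR1 and 0 in U3 and SNR30. TACTAAC, the branch-point consensus of introns in this yeast, searched on the strand of the RNA, lay in 0 of the 92 skipped segments and in 13.1% of all 6195. It likewise lay in 0 forms of U3, SNR30 and SCR1, and in 14.3% of forms in coding hosts. The deposited p-value, whose meaning is not stated, was exactly 1 for 91 of the 92 forms (98.9%), against 82.1% of all forms, 98.1% in U3, 98.8% in SCR1 and all 29 forms in SNR30. The exception was the 436-nt form of snR86, at 0.46429. A direct repeat that let the gap shift by 3 nt or more was found in 19 forms (20.7%), close to the 23.0% of all forms. These shares describe the forms, and no test was made between hosts.

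Box H/ACA RNAs held 62 of the 92 forms, in 15 hosts, with 3784 reads (75.2%). Box C/D RNAs held 9 forms in 3 hosts with 955 reads, and the RNAs of RNase P and RNase MRP held 21 forms with 296 reads (5.88%). The hosts were unevenly drawn from the small RNA genes of R64. Of 82 such genes, 20 had a form listed under their own name, the sense in which forms are counted here. Among box H/ACA RNAs 15 of 28 had one, among box C/D RNAs 3 of 45, and among RNase P, RNase MRP and telomerase RNAs 2 of 3. The genes of the spliceosomal RNAs U1 (SNR19), U2 (LSR1), U4 (SNR14), U5 (SNR7-L and SNR7-S) and U6 (SNR6) had 0 listed forms in the table analysed here, as had TLC1, the telomerase RNA. The H/ACA genes with forms had a median length of 203 nt and those without 204 nt. All 5 H/ACA genes longer than 274 nt, the longest without a form under its own name, had forms. The 3 C/D hosts, snR4, snR63 and snR190, were 186, 255 and 190 nt long, whereas the 42 C/D genes without a form reached 172 nt at most. U2 and TLC1, at 1175 and 1301 nt, were longer than any host.

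A few more forms lay in small RNAs under other host names. Within SNR191, which lies in an intron of NOG2, 4 forms with 45 reads carried the name of NOG2, and within SNR10, 2 forms with 16 reads were listed under a neighbouring open reading frame. Neither gene is among the 20 hosts. Forms named for the introns that hold SNR18, SNR24, SNR39, SNR44, SNR54 and SNR59 overlapped these RNAs, but none lay wholly inside them.

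Every one of the 92 gaps lay wholly inside its annotated RNA. In H/ACA hosts 36 of 62 forms were centred beyond the midpoint of the RNA, and these held 86.0% of the H/ACA reads. In C/D hosts 3 of 9 forms were, with 93.7% of the C/D reads, most of them on the 28-nt form of snR190. The 6 most-read forms in H/ACA RNAs of up to 210 nt, in snR8, snR46, snR49, snR34 and snR3, all ended between 19 and 35 nt before the 3′ end of the RNA. They held 63.7% of all H/ACA reads. Some less-read forms of such RNAs lay further in. The 49-nt form of snR34 (40 reads) ended 80 nt before the 3′ end, and the 13-nt form of snR33 (27 reads) 140 nt. In snR37, which is longer at 386 nt, the 24-nt form with 493 reads ended 85 nt before the 3′ end. No H/ACA form began before base 31 or ended closer than 19 nt to the 3′ end. In RNase P and MRP RNA the reads lay the other way, with 1.69% of them on forms centred beyond the midpoint.

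**Figure D1:**
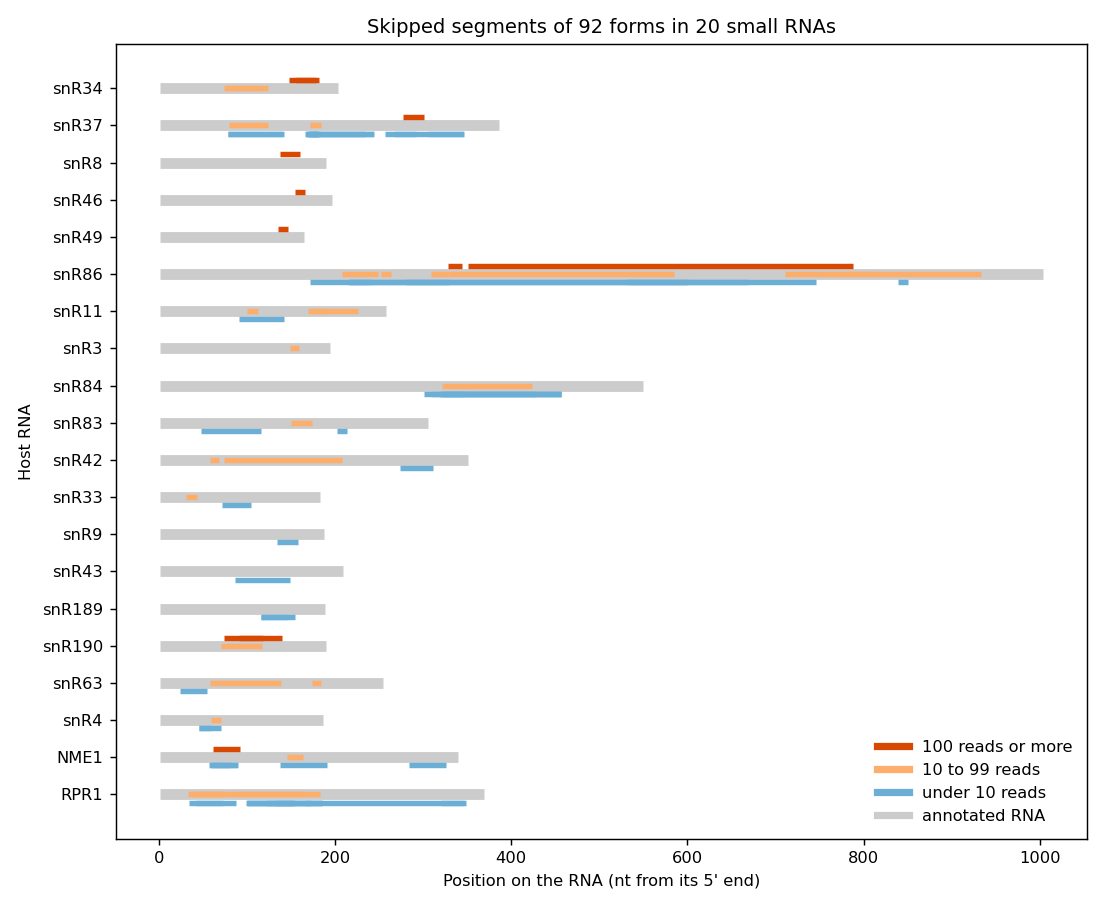
Map of the 92 skipped segments, in nt from the 5′ end of each of 20 host RNAs (grey bars). Colour gives the reads in all 12 libraries together, and segments of 100 reads or more are drawn above the RNA, those of 10 to 99 on it and those under 10 below it. The most-read segments of snR34, snR8, snR46 and snR49 sit near the 3′ end, and that of NME1 near the 5′ end.

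Reads per length of host ranked the RNAs over the 12 libraries together. The value was highest for snR190, a C/D RNA whose annotation lists a predicted methylation target in the large subunit, at 472 reads per 100 nt of RNA. It was also highest in 9 of the single libraries, and snR49 (set1Δ, 25 °C), snR8 (set1Δ prp43-1, 37 °C) and snR34 (set2Δ prp43-1, 25 °C) were highest in 1 each. The H/ACA RNAs snR34 (342), snR8 (324), snR46 (304) and snR49 (283), which guide pseudouridylation of ribosomal RNA, followed. snR37, an H/ACA RNA also involved in early assembly of the large subunit, had 161, NME1, the RNA of RNase MRP, 59.4, snR3 50.5, snR11 46.9, snR86, the longest host at 1004 nt, 40.4, and RPR1, the RNA of RNase P, 25.5. These 11 hosts had at least 94 reads each, and the other 9 had 46 or fewer. A total of 12 hosts had reads in every library. Of the forms, 13 were seen in all 12 libraries, 17 in only 1 and 1 in none.

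Some libraries need to be set apart before they are compared. Column totals ran from 214055 to 402886 reads, 74.5% to 87.5% of them on SCR1, and the number of reads sequenced is unknown. SET1, SET2 and PRP43 had at most 2 reads each in a library and could not check the labels. Reads on 4 alpha-specific genes were found in both libraries of set1Δ, set2Δ and set2Δ prp43-1 (2 to 99 reads) and in 0 of the other 6, which goes against the MATa label of those 3 strains. Scaling factors for counts summed by host ran from 0.648 (set2Δ prp43-1, 37 °C) to 1.69 (wild type, 37 °C), a wider range than the 0.776 to 1.19 for single forms. The library prp43-1 at 37 °C stood apart in the variety of its forms, as shown further on.

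The share of reads on these RNAs was lower at 37 °C in the strains with intact PRP43. Relative to reads outside SCR1 it was 1.08% in wild type at 25 °C (Wilson 95% CI 0.995 to 1.18%) and 0.355% at 37 °C (0.309 to 0.409%). In set1Δ it was 0.659% (0.590 to 0.736%) and 0.469% (0.415 to 0.530%), and in set2Δ 0.897% (0.820 to 0.981%) and 0.443% (0.382 to 0.514%). The interval at 37 °C lay below that at 25 °C in each of these 3 strains.

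With prp43-1 the share was not low at 37 °C. In prp43-1 it was 0.896% at 25 °C (0.817 to 0.984%) and 0.757% at 37 °C (0.674 to 0.850%). In set1Δ prp43-1 it was 0.720% (0.666 to 0.778%) and 0.969% (0.890 to 1.06%), and in set2Δ prp43-1 0.966% (0.890 to 1.05%) and 1.35% (1.25 to 1.45%). The share was thus lower at 37 °C in 1 of these 3 strains and higher in the other 2, and all 3 libraries at 37 °C were above every PRP43 library at that temperature. U3 reads, on the same scale, ran from 19.8% to 24.4% in PRP43 strains and from 24.8% to 42.4% in prp43-1 strains at 37 °C. As a share of all reads, SCR1 included, 2 of the 3 prp43-1 strains were lower at 37 °C. Being a sum over chosen members, the share was not tested. The intervals cover counting error only and take each read as independent. Reads copied by PCR are not independent molecules, so the intervals may be too narrow even for that.

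**Figure D2:**
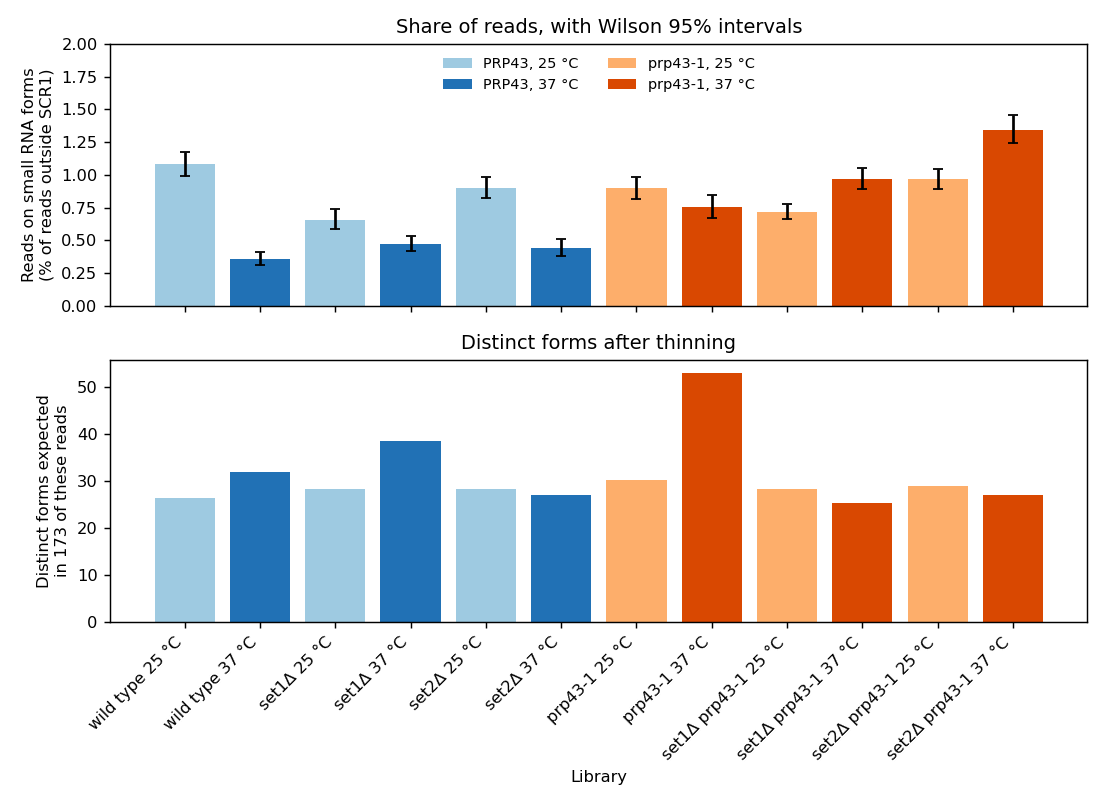
Reads on the 92 forms as a percentage of reads outside SCR1, with Wilson 95% intervals (upper panel), and the number of distinct forms expected in 173 of these reads (lower panel), for the 12 libraries. The PRP43 libraries at 37 °C have the 3 lowest shares, and prp43-1 at 37 °C has the most distinct forms, 53.0 against 25.2 to 38.4 in the others.

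Counts were then summed by host and fitted for all hosts of the table with edgeR, with terms for SET1 and SET2 status, prp43 status and temperature. Of the 20 hosts 10 had enough reads to be tested, all of them among the 117 hosts kept. The 10 are snR190, snR34, snR37, snR8, snR46, snR49, snR86, NME1, snR11 and snR3. The other 10, with fewer reads, were not tested.

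In prp43-1 strains, reads rose on forms of 3 H/ACA RNAs, snR37, snR34 and snR46. The log2 difference was positive for 9 of the 10 hosts, with a median of 0.95, whereas the median over all 117 hosts was -0.07 and 44.4% were positive. Of all hosts tested, 16 (13.7%) were called, 9 of them higher in prp43-1 (7.69%). U3 from SNR17A and SNR30 were among them, with log2 differences of 0.79 (SE 0.22, adjusted p = 0.0281) and 1.11 (SE 0.31, adjusted p = 0.0281) in the same edgeR fit.

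snR37 guides pseudouridylation of the large subunit RNA. At 25 °C its forms had 90.4 CPM (reads scaled by column total and edgeR factor) in wild type, 168 CPM in set1Δ, 195 CPM in set2Δ, and at 37 °C 77.6, 17.9 and 57.2 CPM in the same order. In prp43-1, set1Δ prp43-1 and set2Δ prp43-1 they had 317, 248 and 280 CPM at 25 °C and 177, 265 and 272 CPM at 37 °C. All 6 prp43-1 libraries were above 5 of the 6 PRP43 libraries, and only set2Δ at 25 °C overlapped them. The fitted difference was 2.87-fold, a log2 value of 1.52 (SE 0.38, edgeR adjusted p = 0.0198), higher in 6 of 6 pairs matched by temperature and SET status. In 2 of these pairs the set1Δ library had alpha-specific reads and the set1Δ prp43-1 library had 0.

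The forms of snR34, an H/ACA RNA with pseudouridylation targets in the large subunit, had 212, 142 and 156 CPM at 25 °C and 55.4, 25.1 and 106 CPM at 37 °C in wild type, set1Δ and set2Δ. The matching prp43-1 strains had 231, 146 and 380 CPM at 25 °C and 125, 358 and 627 CPM at 37 °C. The groups overlapped at 25 °C, while at 37 °C each prp43-1 library lay above all 3 PRP43 libraries. The log2 difference was 1.45 (SE 0.45, 2.73-fold, edgeR adjusted p = 0.0358), higher in 6 of 6 pairs.

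snR46, which guides pseudouridylation at a single annotated position of the large subunit RNA, is covered by the 11-nt form printed above. Its reads gave 187, 98.1 and 163 CPM at 25 °C and 58.2, 43.1 and 61.3 CPM at 37 °C in wild type, set1Δ and set2Δ. The prp43-1 strains had 210, 183 and 265 CPM at 25 °C and 83.3, 335 and 467 CPM at 37 °C. At 37 °C no prp43-1 library overlapped the PRP43 libraries, and at 25 °C set1Δ prp43-1 lay just below wild type. The log2 difference was 1.39 (SE 0.43, 2.63-fold, edgeR adjusted p = 0.0358), higher in 6 of 6 pairs.

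These 3 calls depended on the scaling and on the strains. With column totals alone 0 of the 10 hosts were called, and the median over all hosts moved to -0.34, while 9 of the 10 differences stayed positive. Without the 3 strains that had alpha-specific reads, 0 were called and the log2 difference was 0.12 for snR34, -0.07 for snR46 and 1.11 for snR37. Without the library prp43-1 at 37 °C 0 were called, with 1.68 for snR34 (edgeR adjusted p = 0.0829), 1.68 for snR46 (adjusted p = 0.0652) and 1.61 for snR37 (adjusted p = 0.0650). Without set2Δ, prp43-1 or set1Δ prp43-1, 0 of these small RNAs were called, against 4, 3 and 6 of all hosts. The log2 differences of the 3 RNAs stayed positive. In that order they were 1.56, 1.75 and 1.37 for snR37, 1.09, 2.09 and 1.30 for snR34, and 1.08, 2.09 and 1.10 for snR46. Without set1Δ or set2Δ prp43-1 only snR37 of these small RNAs was called, at 1.34 and 1.62, among 8 of all hosts each time. The model treats the 25 °C and 37 °C libraries of a strain as unrelated. With them summed, 4 of 12 tested small RNA hosts were called, snR37, snR34, snR46 and snR11, among 21 of all 173 hosts.

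The other tested hosts missed the threshold. snR8, an H/ACA RNA, had a log2 difference of 1.16 (SE 0.43, edgeR adjusted p = 0.0866), with 262, 101 and 185 CPM at 25 °C and 55.4, 71.8 and 57.2 CPM at 37 °C in PRP43 strains, and 260, 185 and 152 CPM and 161, 393 and 335 CPM in prp43-1 strains. At 37 °C the libraries of PRP43 and prp43-1 strains did not overlap, and at 25 °C they did. snR11, another H/ACA RNA, had 1.22 (SE 0.48, adjusted p = 0.106). The values for snR86, snR190, snR3 and snR49 were 0.75, 0.70, 0.53 and 0.38. NME1 was the one tested host with a negative value, -0.64 (SE 0.44, adjusted p = 0.449). snR49 and snR8 are both guides with a single listed form, and their log2 differences were 0.38 and 1.16, a difference that was not tested.

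**Figure D3:**
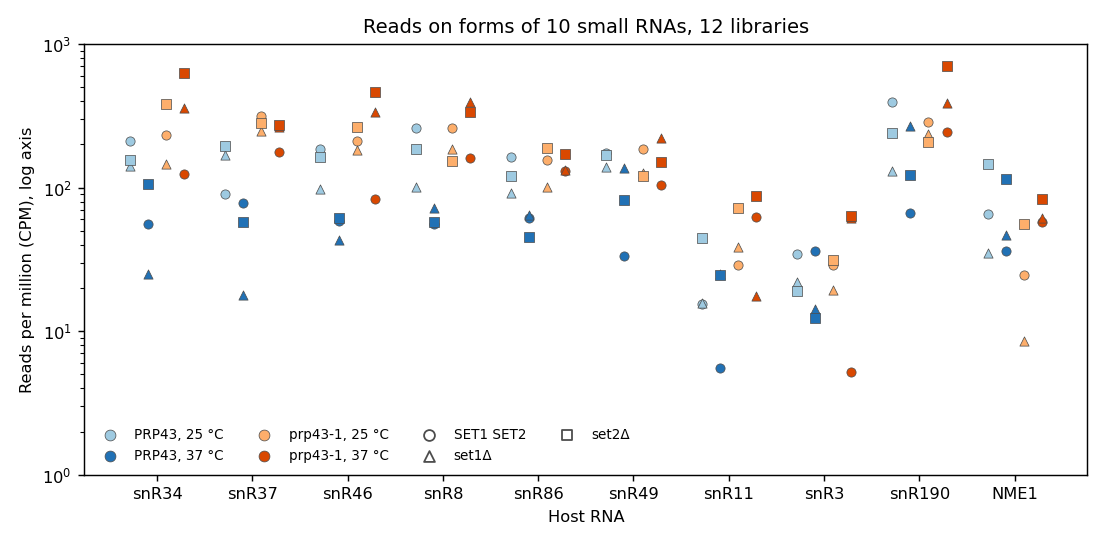
CPM (log axis, edgeR scaling by host) for forms of the 10 tested RNAs, 1 point per library, coloured by prp43 status and temperature and shaped by SET1 and SET2 status. For snR34, snR37, snR46, snR8 and snR86 the prp43-1 libraries at 37 °C lie above all PRP43 libraries at that temperature.

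The contrast between strains looked larger at 37 °C than at 25 °C, but the test of that difference called 0 of the 11 hosts that could be tested with it. In a fit with an added term for prp43-1 by temperature, the term was positive for all 11, with a median of 1.32 on the log2 scale against -0.18 over all 137 hosts tested. It was largest for snR8 (2.13, SE 0.65, edgeR adjusted p = 0.111) and snR34 (2.13, SE 0.69, adjusted p = 0.137). snR46 had 1.78 (adjusted p = 0.247), NME1 1.69 (adjusted p = 0.371), snR190 1.62 (adjusted p = 0.357) and snR11 the smallest value, 0.61 (SE 0.96, adjusted p = 0.856). None of the 137 hosts was called (0.0%). An unadjusted p under 0.05 was reached by 5 of the 11 and by 17 of all 137, and DESeq2 called 0 of the 11. With the strain as a block, snR8 and snR34 passed, both at an edgeR adjusted p of 0.04998, among 6 of all 137 hosts. Without set1Δ 4 of these hosts passed, among 9 of all 128 tested. Without the library prp43-1 at 37 °C 3 passed, snR34, snR46 and snR8, the only ones of all 134 tested.

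**Figure D4:**
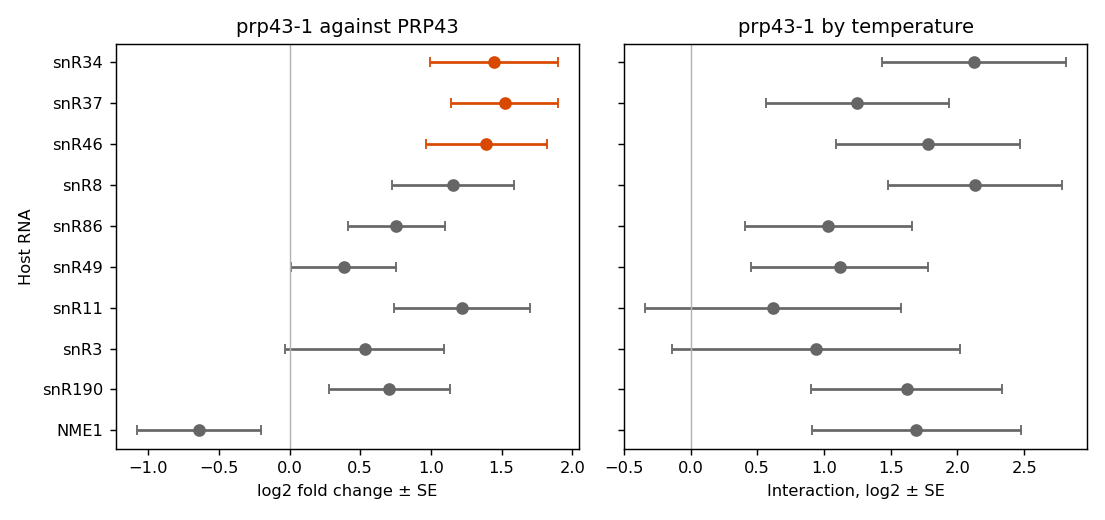
Fitted log2 difference between prp43-1 and PRP43 strains (left) and the term for prp43-1 by temperature (right) for the 10 hosts, with standard errors from edgeR. The 3 hosts past the adjusted threshold are in orange on the left, NME1 alone lies below 0 there, and all 10 points on the right are above 0.

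Averaged over PRP43 and prp43-1 strains, temperature changed none of these hosts past the threshold. The term is shared by both kinds of strain, and it was not fitted in PRP43 strains alone. The median of snR34 fell from 156 to 55.4 CPM in PRP43 strains and rose from 231 to 358 CPM in prp43-1 strains. That of snR37 fell in both, from 168 to 57.2 CPM and from 280 to 265 CPM. Of all 117 hosts 6 were called (5.13%), none of them among the 10. An unadjusted p under 0.05 was reached by 26 of all 117 hosts and by 1 of the 10, snR37. Its forms gave a log2 difference of -0.85 at 37 °C (SE 0.38, edgeR adjusted p = 0.186), lower in 5 of 6 pairs. NME1 was at the other end with 0.51 (SE 0.44, adjusted p = 0.491). DESeq2 called 0 of the 10. Of the 10 values 7 were negative, with a median of -0.46 against -0.02 over all hosts.

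The deletions of SET1 and SET2 gave no call either. edgeR called 0 of 117 hosts for set1Δ (0.0%) and 0 for set2Δ (0.0%), and DESeq2 called 0 of the 10 in each. For set1Δ none of the 10 had an unadjusted p under 0.05 (6 of all 117 did), and the values ran from -0.38 for NME1 to 0.46 for snR49. For set2Δ 9 of all 117 did and 1 of the 10, NME1, with a log2 difference of 1.10 (SE 0.52, edgeR adjusted p = 0.621). Its forms had 147 and 114 CPM in set2Δ at 25 °C and 37 °C and 56.0 and 82.7 CPM in set2Δ prp43-1. Those values were higher than in the matching strains with SET2 in 4 of 4 pairs, against which wild type had 65.5 and 36.0 CPM and prp43-1 24.7 and 57.2 CPM. snR11 was also higher in 4 of 4 pairs (1.16, SE 0.58, adjusted p = 0.686). All 4 set2Δ libraries had alpha-specific reads and their partners had 0, so the deletion and what these reads reflect cannot be told apart in these pairs. The set1Δ libraries, which also had such reads, gave 34.8 and 46.7 CPM for NME1 at 25 °C and 37 °C, below both set2Δ libraries. For snR11 set1Δ gave 15.8 and 25.1 CPM and set2Δ 44.7 and 24.5 CPM, so the values differed at 25 °C and were close at 37 °C. These are single libraries, and a link to the alpha-specific reads was not tested.

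Single forms were fitted in the same way over the whole table. Of the 92 forms 12 passed the filter among 451, and 0 of the 12 were called for prp43-1 (18 of 451 forms, 3.99%), temperature (36 forms, 7.98%), set1Δ (0.0%) or set2Δ (0.0%). Nor were any called for the prp43-1 by temperature term, for which 513 forms were tested (0.0%). An unadjusted p under 0.05 was reached by 6 of the 12 for prp43-1, 4 for temperature, 0 for set1Δ, 1 for set2Δ and 2 for the added term. Over all 451 forms it was reached by 76, 106, 15 and 17 in the same order, and by 54 of 513 for the added term. DESeq2 called 2 for prp43-1, snR46 and the 31-nt form of snR34, and 1 for temperature, the 24-nt form of snR37. Over all 451 forms DESeq2 called 38 for prp43-1 and 56 for temperature.

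The scaling shows in snR46, whose 1 form enters both fits with the same reads. Its log2 difference for prp43-1 was 1.16 as a form (SE 0.35, edgeR adjusted p = 0.0747) and 1.39 as a host. The 31-nt form of snR34 had 1.32 (SE 0.42, adjusted p = 0.0876), the 24-nt form of snR37 1.19 (SE 0.47, adjusted p = 0.171) and the form of snR8 0.94 (SE 0.35, adjusted p = 0.136).

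Within NME1, the 31-nt form printed above went the other way, with a log2 difference of -1.27 in prp43-1 (SE 0.40, edgeR adjusted p = 0.0810), lower in 5 of 6 pairs. It had 18, 7 and 44 reads in wild type, set1Δ and set2Δ at 25 °C and 13, 12 and 23 at 37 °C. In the prp43-1 strains it had 4, 3 and 10 reads at 25 °C and 4, 11 and 16 at 37 °C. The ranges overlap, and the highest counts are both from set2Δ.

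At 37 °C the forms with the lowest fitted values were the 24-nt form of snR37 (-1.32, SE 0.46, edgeR adjusted p = 0.0865) and the 16-nt form of snR86 (-1.17, SE 0.50, adjusted p = 0.157). The snR37 form had 25, 44 and 51 reads at 25 °C in wild type, set1Δ and set2Δ and 65, 99 and 71 in the prp43-1 strains. At 37 °C it had 21, 1 and 10 reads and 11, 52 and 43. The 16-nt form of snR86 had 21, 7, 15, 5, 13 and 25 reads at 25 °C and 7, 5, 1, 3, 2 and 16 at 37 °C, in the order of genotypes given first. It was lower in 6 of 6 pairs. The 26-nt form of snR34 (-0.98, adjusted p = 0.158) and the form of snR49 (-0.73, SE 0.27, adjusted p = 0.109) were each lower in 5 of 6 pairs.

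The variety of forms was highest in 1 library. In prp43-1 at 37 °C 65 of the 92 forms were seen, 11 of them there only, although it held 283 of the 5035 reads (5.62%). Those 11 forms have reads in that library alone. The same counts were not made over all 6195 forms, so whether the variety is particular to these RNAs was not tested. The other libraries showed 27 to 44 forms. Thinned to 173 reads each, the number held by the shallowest library, prp43-1 at 37 °C gave 53.0 distinct forms and set1Δ at 37 °C 38.4, whereas the other 10 gave 25.2 to 31.9. Among forms with at least 10 reads in all, prp43-1 at 37 °C gave 31.5 and the other libraries 21.9 to 28.1. The double mutants set1Δ prp43-1 and set2Δ prp43-1 at 37 °C, with 25.2 and 27.0 forms, did not show the higher number.

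The number of forms seen in that library was high in snR37 and RPR1. Of the 15 forms of snR37, 13 had reads in prp43-1 at 37 °C, against 2 to 7 in the others. For RPR1, the RNA of RNase P, it was 10 of 14 forms, against 1 to 6. RPR1 had 26 of its 94 reads in that library (27.7%) and 22 in set1Δ at 37 °C, and 1 to 9 in each other library. snR84, an H/ACA RNA of 550 nt, had 18 of 46 reads there and 8 in set1Δ at 37 °C, and snR4, a C/D RNA, had 10 of 18 there and 3 in set1Δ at 37 °C. Every other library had 4 reads or fewer on each of these RNAs, and neither passed the filter for a test. RPR1 passed the filter only in the fit with the added term, where its value was 1.32 (SE 1.27, edgeR adjusted p = 0.669).

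By contrast snR86, with 14 forms, showed 7 of them in prp43-1 at 37 °C and 5 to 9 in the other libraries. Its forms were the longest, up to 574 nt, and no single one dominated, since the 16-nt form held 29.6% of its reads and the 436-nt form 26.6%. The 436-nt form was seen in all 12 libraries, with 3 to 14 reads.

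The remaining hosts had few reads. snR83, snR42 and snR33 are H/ACA RNAs with 40, 35 and 28 reads over the 12 libraries, and snR63 is a C/D RNA with 40. In snR83 the 24-nt form held 70.0% of the reads, and in snR33 a 13-nt form held 96.4%. snR9, snR43 and snR189 had 5, 4 and 3 reads, seen in 3 or 4 libraries each.

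The proteins that build and process these particles were looked up in the same table from a list of 60 genes. Forms were listed for 21 of them, 45 forms with 128 reads in all. Only NOP1, the methyltransferase of box C/D particles, had enough reads for a test, with 66 on 8 forms, and only in the fit with the prp43-1 by temperature term. Its value there was -0.07 (SE 1.35, edgeR adjusted p = 0.980). NHP2, a core protein of H/ACA particles, had 1 listed form with 0 reads.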

How the data were processed

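RNA sequencing of 12 yeast libraries (6 genotypes at 25 °C and 37 °C, 1 library each) was analysed from 1 deposited table of splice forms that, by its name, excludes annotated introns. The library columns are raw read counts, per the file headers, as deposited by the authors and not scaled. The deposited p-value is 1 number per form with no stated meaning, per the file headers. Per the submitters' processing notes, CASAVA, STAR 2.4.0 and the build sacCer3 were used, and filters and the counting rule are not given in the sources used here. All 92 gaps lay inside the R64 annotation of their hosts. Counts were tested by host and by form with the edgeR 4.0.16 quasi-likelihood test in R 4.3.3 (filterByExpr, TMM, Benjamini-Hochberg over everything tested, threshold 0.05), and DESeq2 1.42.0 was an alternative. Standard errors are the log2 value over the square root of F. CPM are the counts scaled with these factors. Pair directions used log2(CPM + 1). Host classes came from a fixed list, and the genes named were hosts past the filter, the 12 most-read forms and, whatever their reads, the spliceosomal RNAs, RPR1, NME1 and TLC1. The other hosts were named after their values were seen. The fit was tested on simulated data. The members and lists were chosen with earlier results of these data known. With 1 library per condition, depth limits precision, and the 10 hosts with 94 reads or fewer did not pass the filter of the reported fit. Labels do not say whether libraries came from separate cultures, so p-values measure only the spread between these libraries.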

Additional observations from a re-analysis of the deposited data

How the results depend on the processing

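The number of these hosts called for prp43-1, 3 in the reported fit, was 0 without TMM factors, 1 with RLE factors, 0 without the 3 strains that had alpha-specific reads, 0 without the library prp43-1 at 37 °C (an alternative chosen after seeing the data), and 0 to 4 when each genotype was left out in turn. It stayed at 3 with SCR1 left out and without the low-count filter, and was 4 with DESeq2 and with temperatures summed. Over all hosts DESeq2 called 20 of 117 and the summed fit 21 of 173. For the prp43-1 by temperature term the number, 0 as reported, was 2 with the strain as a block, 3 without the library prp43-1 at 37 °C, and 0 to 4 when each genotype was left out. Over all hosts that term gave 6 calls with the block, 3 without that library and 9 without set1Δ. For single forms and prp43-1, 0 as reported, it was 3 with SCR1 left out, 3 without the filter, 2 with DESeq2, 1 without the 3 strains, 1 without the library prp43-1 at 37 °C, 2 with temperatures summed, and 0 to 1 when genotypes were left out. For single forms and temperature it was 1 with SCR1 left out, without the filter and with DESeq2, and 0 to 1 when genotypes were left out. The cause was not tested. Without the 3 strains the log2 difference for prp43-1 reversed to -1.31 for snR3 and -0.069 for snR46, and without TMM factors the added term reversed to -0.023 for snR11. Over all hosts the prp43-1 calls, 16 as reported, ran from 2 to 21 over the alternatives. The host calls for temperature, 6 as reported, ran from 2 to 11. Over all forms they ran from 2 to 75 for temperature (36 as reported) and from 5 to 38 for prp43-1 (18). As a share of all reads, 2 in place of 1 of the prp43-1 strains were lower at 37 °C, and the share could not be computed for forms with a deposited p-value under 0.05, of which there were 0. Distinct forms in prp43-1 at 37 °C moved from 53.0 to 31.5 with forms of at least 10 reads. The labels carry no replicate numbers, and pairing of libraries came from the strain: with the strain as a block, the calls for temperature stayed at 0 for hosts and for forms. The set2 contrast had no value without the 3 strains.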
